A study of Rattus norvegicus with 4 samples.

Results

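A set of 10 genes that carry survival and calming signals between tissue cells and macrophages was followed by symbol through single-cell RNA data of rat fascia. They are Csf1, Il34, Csf1r, Cx3cl1, Cx3cr1, Cd200, Cd200r1, Gas6, Axl and Mertk, and each of the 10 had a row of its own among the 30560 gene rows of all 4 libraries. Cells came from the abdominal midline fascia of rats in which dysentery had been induced with Salmonella. The acupuncture group (2 libraries) received acupuncture after the infection and the dysentery group (2 libraries) did not, so the infection is common to both and no healthy animal enters the comparison. The strain and age of the rats are not given in the labels used here.

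Macrophages need continuous signalling through the receptor tyrosine kinase CSF1R to survive, and tissue cells supply its ligands CSF1 and IL-34. Other signals restrain macrophages by contact: CX3CL1 (fractalkine) acts on CX3CR1, and CD200 acts on the inhibitory receptor CD200R1. GAS6 bridges phosphatidylserine on dying cells to the TAM receptors AXL and MERTK, which drive uptake of those cells and dampen inflammatory signalling.

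Groups were taken from the library titles. The treatment field of all 4 libraries names the opposite group, and under that field each direction between groups given here would be the opposite. Whether each library is a different rat is not given, and p-values therefore measure only the spread between these libraries. A comparison of the groups without 1 library leaves 1 library in a group, so its p-value rests on the spread within the other group. After filtering, 32397 of 38282 cells were kept, 6310 to 9816 per library at a median depth of 6629.5 to 9188 unique molecular identifiers (UMIs). Dysentery replicate 1 stood apart in the share of its cells above the mitochondrial limit, 16.0% against 5.11% to 7.17% in the other libraries. Between 19 and 32 cell barcodes were shared by each pair of libraries. Cells were assigned to classes by marker genes, and 17.0% of kept cells stayed without a class. Stromal cells (fibroblasts and telocytes, which the markers did not separate) numbered 2748 to 6070 per library and macrophages 639 to 2407. The share of macrophages among kept cells was 24.4% and 28.1% in the acupuncture libraries against 10.1% and 11.8% in the dysentery libraries. In stromal cells the summed stromal markers reached 58994 to 93493 CPM (the UMIs of a gene or list in a class of one library, scaled to a common total) while those of macrophages stood at 67.7 to 146 CPM. In macrophages the summed macrophage markers reached 21815 to 31494 CPM and the stromal ones 405 to 936 CPM.

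Levels are given as CPM, and levels of different genes were not compared with each other. The CSF1R ligands lay in the stroma and their receptor in macrophages. Stromal cells held 87.0% to 95.5% of the Csf1 UMIs and 96.2% to 98.6% of the Il34 UMIs of a library. Csf1 reached 265 CPM ± 27.7 (SD, n = 4) in stromal cells, 126 CPM ± 52.5 (SD, n = 4) in neutrophils, 58.4 CPM ± 15.7 (SD, n = 4) in vascular endothelium and 16.3 CPM ± 14.0 (SD, n = 4) in macrophages. Mast cells gave Csf1 at 186 to 375 CPM, on 2 to 65 UMIs per library, so they could not be told from stromal cells at this depth. Il34 stood at 240 CPM ± 170 (SD, n = 4) in stromal cells and at 174 CPM ± 92.9 (SD, n = 4) in mural cells, where it rested on 3 to 43 UMIs per library, and the values of these classes overlapped. Csf1r was at 1367 CPM ± 203 (SD, n = 4) in macrophages and at 292 CPM ± 43.2 (SD, n = 4) in monocytes, with no overlap between them, and at 4.64 CPM ± 1.59 (SD, n = 4) in stromal cells.

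The contact signals had their highest levels outside the stroma. Cx3cl1, a membrane-bound chemokine, was found in vascular endothelium at 52.8 CPM ± 12.95 (SD, n = 4) and in epithelial cells at 61.2 CPM ± 22.1 (SD, n = 4), whose ranges overlapped, and at 0.57 CPM in stromal cells. Its receptor Cx3cr1 was highest in T cells, at 99.3 CPM ± 52.0 (SD, n = 4), and in natural killer or innate lymphoid cells, at 83.05 CPM ± 48.6 (SD, n = 4), which did not differ beyond their spread. Monocytes followed with 25.0 CPM ± 9.41 (SD, n = 4), and macrophages with 22.6 CPM ± 39.8 (SD, n = 4). Cd200, an immunoglobulin-family surface protein, was highest in vascular endothelium at 287 CPM ± 43.7 (SD, n = 4), followed by mural cells at 174 CPM ± 75.2 (SD, n = 4) and dendritic cells at 91.9 CPM ± 29.4 (SD, n = 4). Stromal cells stood at 17.5 CPM ± 7.05 (SD, n = 4) but were so numerous that they held 32.5% to 62.4% of the Cd200 UMIs of a library. Cd200r1 was low throughout, with 7.29 CPM ± 0.77 (SD, n = 4) in macrophages, 14.1 CPM ± 0.96 (SD, n = 4) in neutrophils on 3 to 12 UMIs per library, and 42.3% to 69.7% of its UMIs in cells without a class.

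The TAM genes were divided between both compartments. Gas6 was at 504 CPM ± 154 (SD, n = 4) in macrophages, at 254 CPM ± 35.01 (SD, n = 4) in stromal cells and at 108 CPM ± 10.6 (SD, n = 4) in vascular endothelium, and these 3 classes did not overlap. Epithelial cells held Gas6 at 560 to 1509 CPM, over the range of macrophages in 3 of 4 libraries. Axl lay in stromal cells, at 564 CPM ± 101 (SD, n = 4) and with 88.3% to 95.7% of its UMIs, followed by mural cells at 218 CPM ± 57.3 (SD, n = 4) and macrophages at 53.3 CPM ± 52.6 (SD, n = 4). Mertk lay in macrophages, at 37.9 CPM ± 5.15 (SD, n = 4) and with 63.7% to 93.0% of its UMIs, and was at 1.02 CPM ± 0.20 (SD, n = 4) in stromal cells. As whole classes, the stroma thus held Gas6 and Axl, and macrophages held Gas6 and Mertk, which does not place them in the same cells.

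**Figure D1:**
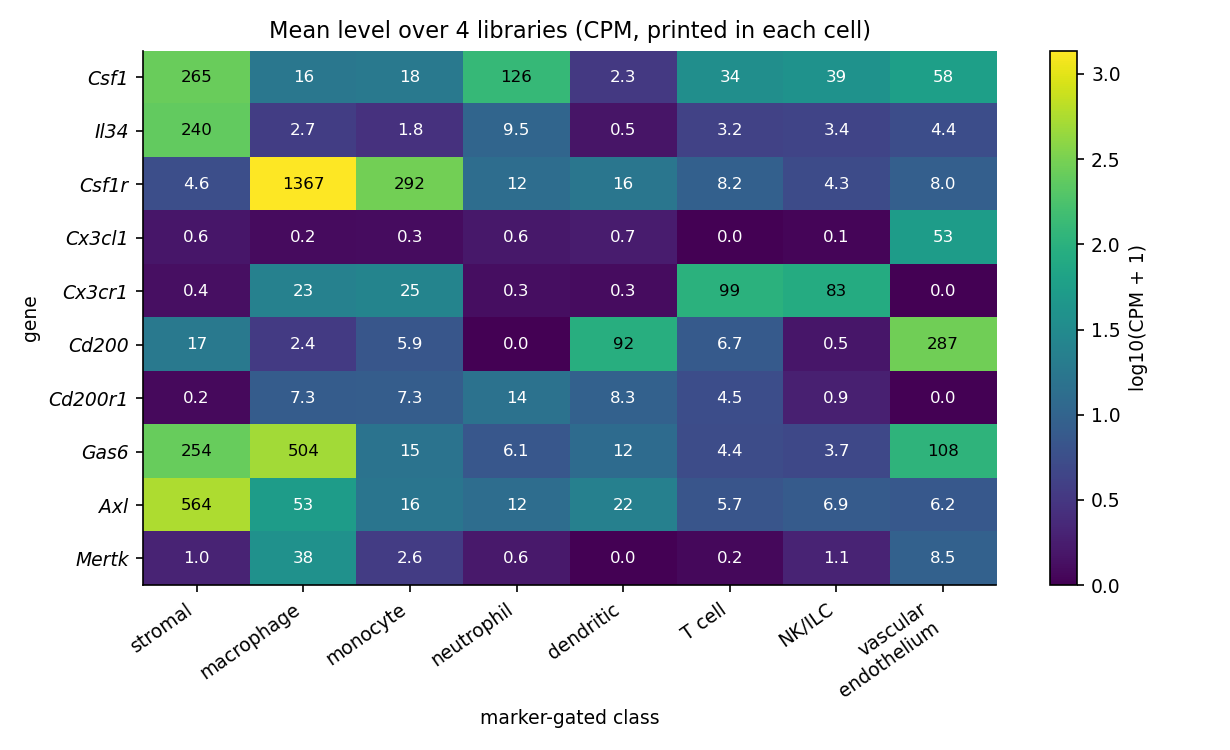
Mean level of each of the 10 genes over 4 libraries in the marker-gated classes whose smallest library sum held 27 cells or more, printed in CPM and coloured by log10(CPM + 1). Csf1, Il34 and Axl are highest in the stromal column (265, 240 and 564 CPM), Csf1r, Gas6 and Mertk in the macrophage column (1367, 504 and 37.9 CPM), Cx3cr1 in T cells, and Cx3cl1 and Cd200 in vascular endothelium.

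The first comparison asked how these genes differed in stromal cells between acupuncture and dysentery. Of the 9 genes with enough counts to be tested, 1 passed the edgeR quasi-likelihood test at an adjusted p of 0.05, namely Cd200, against 2.54% of all 13233 genes tested in stromal cells. Cd200 was at 26.8 and 19.1 CPM in acupuncture replicates 1 and 2, and at 11.6 and 12.5 CPM in dysentery replicates 1 and 2. The lower acupuncture library still exceeded the higher dysentery one. The log2 fold change was 0.92 ± 0.16 (SE), with an edgeR adjusted p of 0.0466. Over all alternatives the adjusted p, by edgeR or DESeq2, ranged from 0.000776 to 0.281. The edgeR adjusted p was 0.116 without acupuncture replicate 1, 0.061 without acupuncture replicate 2, 0.0714 without dysentery replicate 1 and 0.104 without dysentery replicate 2, and 0.075 when stromal cells were taken from clusters. As values that move with it, the summed dissociation stress genes (Fos, Jun and others induced during tissue digestion) were 11426 and 13562 CPM in the acupuncture stroma and 2424 and 3033 CPM in the dysentery stroma, with all 9 measured genes higher in both acupuncture libraries. Vascular endothelial markers, the class with the highest Cd200 level, summed to 8.50 and 6.65 CPM against 10.3 and 6.72 CPM in the same stromal sums, with 0 of their 7 genes at zero. Mural markers, the class next in Cd200, summed to 31.7 and 37.4 CPM against 30.5 and 22.7 CPM there. Of these 6 genes, 3 were higher and 0 were lower in both acupuncture libraries. The part of these values in the Cd200 difference was not tested.

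The other stromal signals did not pass. Csf1 was at 293 and 278 CPM with acupuncture and at 259 and 229 CPM with dysentery, so the groups did not overlap, as held for 48.4% of all genes tested in stromal cells. Its log2 fold change was 0.24 ± 0.11 (SE), with an edgeR adjusted p of 0.313. Il34 was at 140 and 166 CPM with acupuncture and at 162 and 495 CPM with dysentery. Dysentery replicate 2 alone was high, and the other dysentery library lay between the acupuncture libraries. Il34 had a log2 fold change of -1.11 ± 0.51 (SE), with an edgeR adjusted p of 0.295. The log2 fold change was -0.03 without dysentery replicate 2 and -1.72 without dysentery replicate 1.

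Gas6 was at 245 and 256 CPM with acupuncture and at 300 and 216 CPM with dysentery in stromal cells. The dysentery libraries lay on either side of the acupuncture ones, with a log2 fold change of -0.02 ± 0.17 (SE) and an edgeR adjusted p of 0.961. Axl, the TAM receptor of the stroma, was at 564 and 425 CPM with acupuncture and at 608 and 660 CPM with dysentery. The groups did not overlap, and the log2 fold change was -0.36 ± 0.15 (SE), with an edgeR adjusted p of 0.262. Csf1r, Cx3cl1, Cx3cr1 and Mertk lay at or below 5.72 CPM in every stromal sum and none passed. Csf1r had a log2 fold change of 0.57 (edgeR adjusted p of 0.453), and of 0.88 (0.0188) with doublets kept. It was 1.23 without dysentery replicate 1 and 0.07 without dysentery replicate 2. Cd200r1 had 3 to 13 UMIs per library and was not tested.

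**Figure D2:**
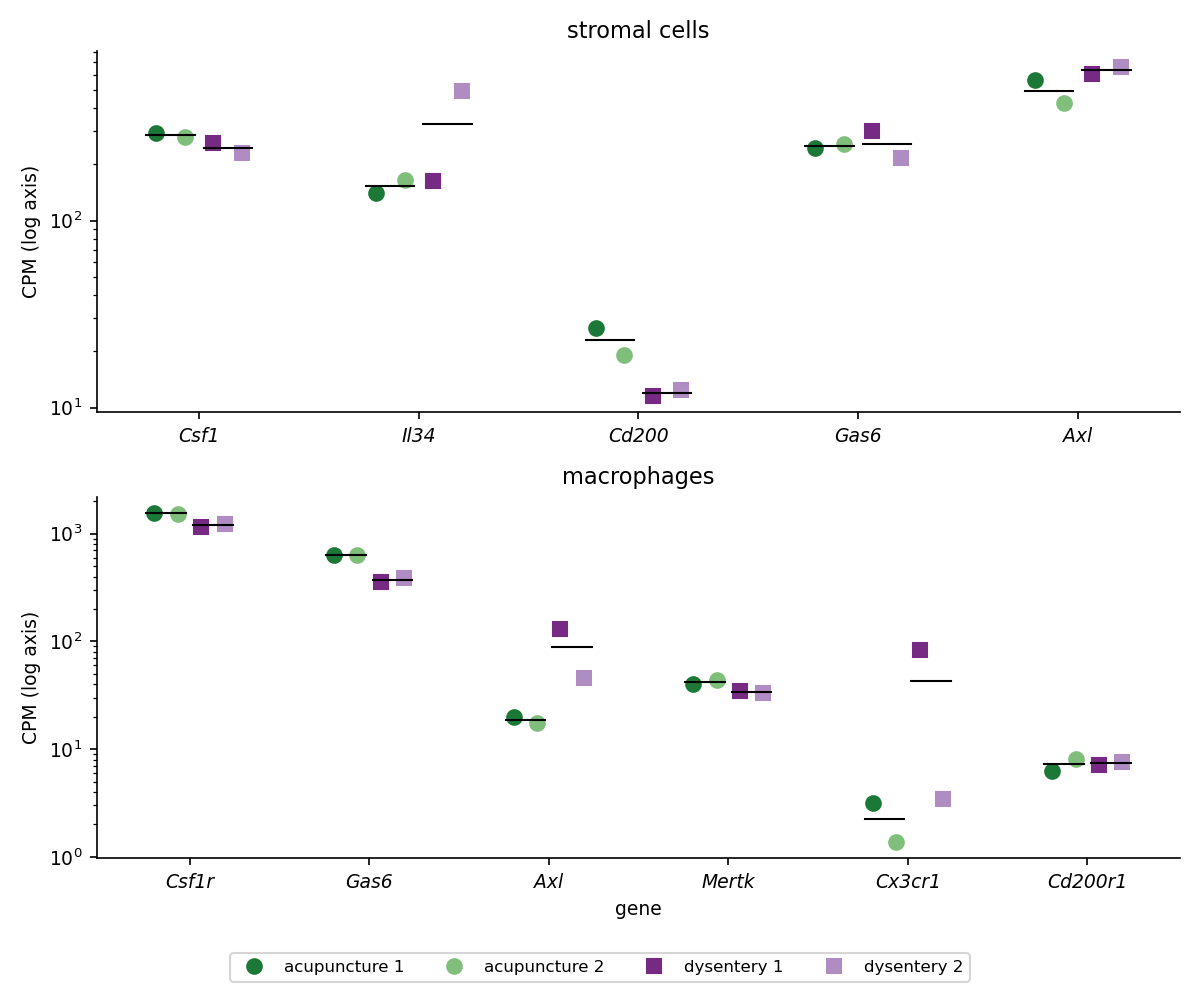
Level of each gene in every library, in CPM on a log axis, for stromal cells (top) and macrophages (bottom). Circles are acupuncture libraries, squares dysentery libraries, and lines the group means. Stromal Cd200 and macrophage Gas6 are higher in both acupuncture libraries (26.8 and 19.1 against 11.6 and 12.5 CPM, and 637 and 637 against 354 and 390 CPM), while stromal Il34 and macrophage Cx3cr1 are each high in 1 dysentery library.

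In macrophages the same comparison called 1 of 9 tested genes, Gas6, against 2.23% of all 11314 genes tested there. Gas6 was at 637 CPM in both acupuncture libraries and at 354 and 390 CPM in dysentery replicates 1 and 2. The groups did not overlap, as held for 57.9% of all genes tested in macrophages. The log2 fold change was 0.89 ± 0.13 (SE), with an edgeR adjusted p of 0.0415. The edgeR adjusted p was 0.235 without acupuncture replicate 1 and 0.292 without acupuncture replicate 2, fits in which 0 genes of the whole table passed. It was 0.0586 with doublets kept and 0.0544 with a stricter marker gate. It was 0.0596 with the first of 2 forms of the gate, which had been replaced after values of these genes had been seen under it. Over all alternatives the adjusted p, by edgeR or DESeq2, ranged from 6.24e-07 to 0.64. Stromal RNA carried over at its mean ratio to Col1a1 would give 1.16 to 4.33 CPM of Gas6 in macrophages. The part of carried-over RNA in the Gas6 level was not tested. Monocyte markers in the same macrophage sums were at 106 and 122 CPM with acupuncture and at 428 and 425 CPM with dysentery, 4 of 5 genes lower in both acupuncture libraries and 0 at zero. Macrophage markers summed to 31494 and 27028 CPM with acupuncture and to 22494 and 21815 CPM with dysentery. Of these 8 genes, 4 were higher and 1 was lower in both acupuncture libraries. The part of these marker values in the Gas6 difference was not tested.

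The receptors followed no common direction. Csf1r was at 1543 and 1539 CPM with acupuncture and at 1163 and 1221 CPM with dysentery, higher in both acupuncture libraries. Its log2 fold change was 0.49 ± 0.13 (SE), with an edgeR adjusted p of 0.114. Mertk was at 40.1 and 44.2 CPM with acupuncture and at 34.3 and 33.2 CPM with dysentery, again without overlap. The log2 fold change was 0.44 ± 0.12 (SE), with an edgeR adjusted p of 0.127. DESeq2, as another count test, gave Csf1r an adjusted p of 0.0116 and Mertk one of 0.244.

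Axl lay the other way in macrophages. It was at 19.7 and 17.5 CPM with acupuncture and at 130 and 46.0 CPM with dysentery, so both dysentery libraries stood above both acupuncture libraries. The log2 fold change was -2.11 ± 0.47 (SE), with an edgeR adjusted p of 0.085, while DESeq2 gave an adjusted p of 8.91e-05. Leaving out each library in turn gave log2 fold changes from -2.65 (without dysentery replicate 2) to -1.19 (without dysentery replicate 1). Stromal RNA at its mean ratio to Col1a1 would give 1.93 to 8.78 CPM of Axl in macrophages, and Axl in T cells was at 1.81 to 11.8 CPM. The part of such RNA in the Axl difference was not tested.

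Cx3cr1 in macrophages rested on 1 library. It was at 3.15 and 1.38 CPM with acupuncture, at 82.3 CPM in dysentery replicate 1 and at 3.44 CPM in dysentery replicate 2. The log2 fold change was -4.13 ± 1.37 (SE), with an edgeR adjusted p of 0.171. It was -0.53 without dysentery replicate 1 and -5.10 without dysentery replicate 2. Of 123 macrophages with a Cx3cr1 UMI in dysentery replicate 1, 93 belonged to 1 cluster (number 17), which held 117 macrophages of that library. Its leading genes include Acp5, Plau, Mmp12, Tmem119 and Cx3cr1 itself. In these 117 cells Cx3cr1 was at 566 CPM and Axl at 451 CPM. Clusters were formed from genes of these same cells, so these levels are a description. In macrophages without any Cx3cr1 UMI, Axl was at 18.5 and 17.1 CPM with acupuncture and at 95.1 and 43.6 CPM with dysentery, with a log2 fold change of -1.82 and an edgeR adjusted p of 0.0347. Cd200r1 was at 6.30 and 8.13 CPM with acupuncture and at 7.18 and 7.54 CPM with dysentery, with a log2 fold change of 0.09 ± 0.22 (SE) and an edgeR adjusted p of 0.844. Il34 was at 0.95 and 1.21 CPM with acupuncture and at 3.99 and 4.76 CPM with dysentery, on 15 to 36 UMIs per library. The groups did not overlap, with a log2 fold change of -1.89 and an edgeR adjusted p of 0.0573, which ranged from 0.00151 to 0.391 over the alternatives. T cells held Il34 at 0.94 to 7.02 CPM, and stromal RNA at its ratio to Col1a1 would give 0.68 to 5.54 CPM in macrophages. The part of such RNA in the difference was not tested. Csf1 in macrophages was at 10.5 and 9.35 CPM with acupuncture and at 37.3 and 8.199 CPM with dysentery, with an edgeR adjusted p of 0.398, high in dysentery replicate 1 only. Without dysentery replicate 2 its log2 fold change was -1.76, and without dysentery replicate 1 it was 0.39. Cd200 in macrophages rested on 16 to 31 UMIs per library and did not pass (edgeR adjusted p of 0.326).

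Promoters of the 2 genes called between groups are shown for reference. They run from 250 bases before to 50 after the start site in the RefSeq table of build GRCr8, which is not the build named for these data. That table held 7 of the 10 genes. The core of the motif bound by PU.1, the transcription factor of macrophages, was searched as GAGGAA on both strands and is in capitals. It was present in the Cd200 promoter and not in the Gas6 promoter, and 27.6% of 33469 promoters of this length held it, so a match describes the letters only. Cd200 lies at chr11:68916065-68916364 (plus strand) and Gas6 at chr16:82747426-82747725 (plus strand).
Cd200: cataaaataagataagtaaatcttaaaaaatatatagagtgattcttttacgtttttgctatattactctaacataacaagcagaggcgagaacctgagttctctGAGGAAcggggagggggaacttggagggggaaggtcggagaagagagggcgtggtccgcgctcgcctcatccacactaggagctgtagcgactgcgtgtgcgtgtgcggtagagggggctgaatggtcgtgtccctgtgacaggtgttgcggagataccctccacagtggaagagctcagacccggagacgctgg
Gas6: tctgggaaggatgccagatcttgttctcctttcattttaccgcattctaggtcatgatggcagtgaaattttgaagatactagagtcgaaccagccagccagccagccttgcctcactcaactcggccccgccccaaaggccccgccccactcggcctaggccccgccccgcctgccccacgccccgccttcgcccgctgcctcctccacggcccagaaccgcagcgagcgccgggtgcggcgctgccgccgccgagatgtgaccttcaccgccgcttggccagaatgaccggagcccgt

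The composition of both classes differed between the groups. Of macrophages with both Mrc1 and Cd163 UMIs, cluster 3 (led by Gdf15, Mt2A, Hspb1 and Il10) made up 49.0% and 66.3% in the acupuncture libraries and 0.93% and 2.20% in the dysentery libraries, and stromal cluster 5 held 3445 cells of dysentery replicate 2. The comparison was therefore repeated, after the data had been seen, in the clusters with at least 100 macrophages (clusters 0 and 9) or at least 200 stromal cells (cluster 12) in every library. In clusters 0 and 9 together, the log2 fold change of Gas6 was 0.19, with an edgeR adjusted p of 0.64. Gas6 was at 465, 452, 303 and 388 CPM in cluster 0 and at 764, 899, 728 and 715 CPM in cluster 9, in the order acupuncture replicates 1 and 2, dysentery replicates 1 and 2. Within each of these clusters the acupuncture libraries were higher, by less than over all macrophages. In each library Gas6 was higher in cluster 9 than in cluster 0. Clusters were formed from genes of these same cells, so that difference is a description. The part of cluster make-up in the Gas6 difference between groups was not tested. Csf1r and Mertk turned sign there, to -0.05 and -0.15, with edgeR adjusted p-values of 0.913 and 0.724. Axl kept its direction, at -1.25 with an edgeR adjusted p of 0.0847. It was at 37.0, 21.9, 102 and 104 CPM in cluster 0 and at 10.9, 8.13, 28.4 and 20.1 CPM in cluster 9, in the same order, higher in both dysentery libraries in both clusters. In macrophages the summed dissociation stress genes were 21988 and 25403 CPM with acupuncture and 11403 and 6678 CPM with dysentery, and their part in these differences was not tested.

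Stromal clusters differed in which signals they held. Gas6 was at 906 and 932 CPM in clusters 8 and 12, which share Mgp, Igfbp7, Cilp and Col15a1 among their leading genes, and at 117 to 198 CPM in the other 5 stromal clusters. The same clusters 8 and 12 held less Axl (243 and 272 CPM against 511 to 697 CPM) and less Il34 (33.3 and 43.8 CPM against 146 to 614 CPM). Clusters were formed from all genes of these cells, so these levels are a description. Il34 was highest in cluster 5 (614 CPM), at 653 CPM in its 3445 cells from dysentery replicate 2 and 315 CPM in its 341 cells from dysentery replicate 1. In cluster 4 it was at 592 CPM in dysentery replicate 2 and at 245 to 267 CPM in the other libraries. In cluster 12 the log2 fold change was -0.01 for Il34, 0.83 for Cd200 (edgeR adjusted p of 0.281) and -0.02 for Axl (edgeR adjusted p of 0.975). Cluster 12 is low in Il34 and Axl, so these values do not cover the stromal clusters where both are higher. Under the macrophage limit of 100 cells, stromal clusters 4 and 11 (at least 117 and 143 cells in every library) would have entered too.

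**Figure D3:**
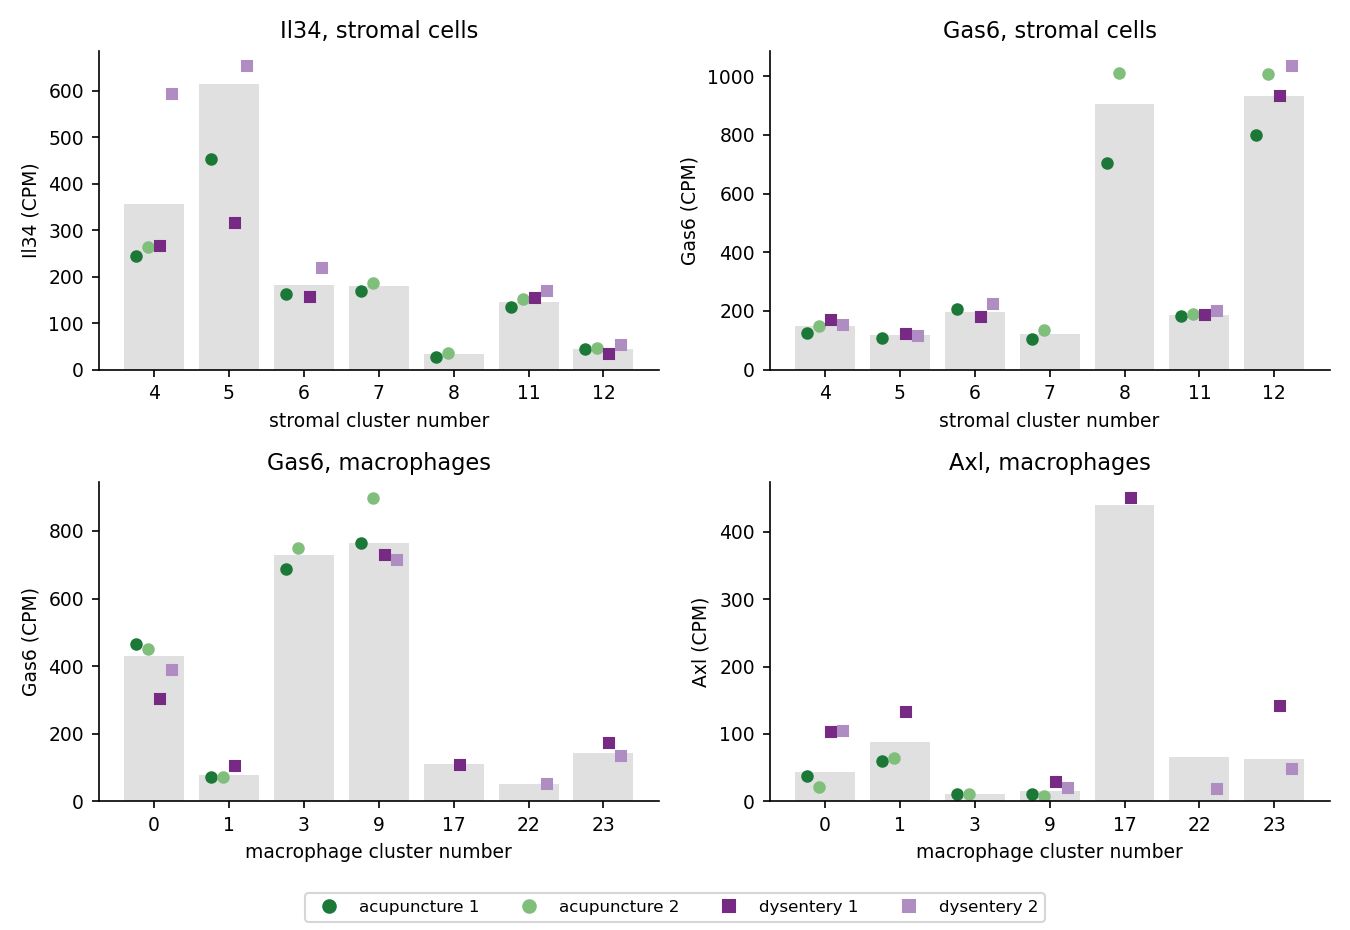
Level in CPM by cluster for Il34 and Gas6 in stromal cells (top) and Gas6 and Axl in macrophages (bottom). Bars pool all libraries, circles are acupuncture and squares dysentery libraries, and a library is shown only where the table lists it for that cluster. Stromal Gas6 is high in clusters 8 and 12 (906 and 932 CPM), Il34 in cluster 5 (614 CPM), and macrophage Axl in cluster 17 (439 CPM, 117 of 138 cells from dysentery replicate 1).

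**Figure D4:**
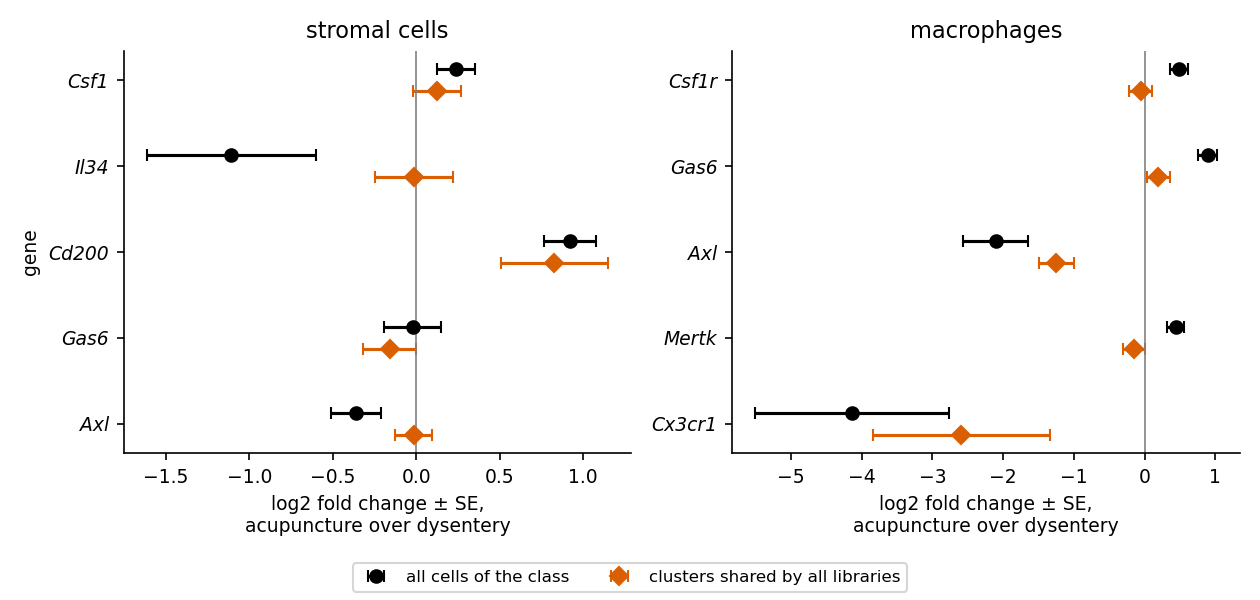
Log2 fold change of acupuncture over dysentery with its SE from edgeR, over all cells of the class (black) and in the clusters shared by all libraries (orange). Gas6 in macrophages is at 0.89 and 0.19, and Axl in macrophages at -2.11 and -1.25. Il34 in stromal cells is at -1.11 and -0.01, the latter in cluster 12 alone, which is low in Il34 (43.8 CPM over all libraries).

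Whether a gene changed differently in macrophages and stroma was tested directly with library as a block. Of the 10 genes, 0 passed, against 0.835% of 13645 genes, with edgeR adjusted p-values of 0.0962 for Cd200, 0.128 for Cx3cr1, 0.145 for Gas6, 0.164 for Axl and 0.447 to 0.933 for the other 6. A call for Gas6 in macrophages and not in stroma is thus not shown to be a difference between these cells. At an unadjusted p under 0.05, Cd200, Cx3cr1, Gas6 and Axl passed, with unadjusted p-values of 0.00254, 0.00461, 0.00621 and 0.00828, as did 13.6% of all genes.

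Outside these classes, 0 of 4 tested genes passed the edgeR test in vascular endothelium, against 1.42% of 6643 genes, with 1 (Cd200) at an unadjusted p under 0.05, as held for 14.9% of all genes, and 0 in DESeq2. Cd200 there was at 253 and 246 CPM with acupuncture and at 329 and 320 CPM with dysentery. The groups did not overlap, as held for 46.6% of all genes tested there, and the direction was opposite to that in stroma, a difference that was not tested, with a log2 fold change of -0.48 ± 0.19 (SE) and an edgeR adjusted p of 0.247. Cx3cl1 was at 58.9 and 34.8 CPM with acupuncture and at 52.7 and 64.6 CPM with dysentery, with overlapping groups and an edgeR adjusted p of 0.512. Gas6 was at 99.6 and 104 CPM with acupuncture and at 124 and 106 CPM with dysentery, with a log2 fold change of -0.26 ± 0.21 (SE) and an edgeR adjusted p of 0.614, and Csf1 was at 46.3 to 81.2 CPM with an edgeR adjusted p of 0.441. These sums held 57 to 194 cells and 20 to 42 Cx3cl1 UMIs per library. In T cells, a class added after the data had been seen, 0 of 7 tested genes passed the edgeR test against 1.49% of 8699 genes, with 4 (Axl, Cd200r1, Cx3cr1 and Csf1r) at an unadjusted p under 0.05, as held for 15.1% of all genes. DESeq2 also called none of those to which it gave an adjusted p. Cx3cr1 was at 87.3 and 32.2 CPM with acupuncture and at 152 and 126 CPM with dysentery. Both dysentery libraries stood above both acupuncture libraries, with a log2 fold change of -1.20 ± 0.35 (SE) and an edgeR adjusted p of 0.182. Leaving out each library in turn gave log2 fold changes from -2.05 (without acupuncture replicate 1) to -0.66 (without acupuncture replicate 2). Markers of natural killer cells within the T cell sums lay in the same order, at 962, 433, 1512 and 1240 CPM, and their part was not tested.

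Telocytes positive for Ptgs2 are named in the title of the series, and stromal cells were therefore split within each library by the presence of a UMI of Ptgs2, the inducible prostaglandin synthase. Cells with a Ptgs2 UMI made up 24.1% and 38.7% of stromal cells with acupuncture and 12.1% and 25.1% with dysentery, and they were deeper (7852 to 14185 against 5901 to 6917.5 UMIs at the median). In this contrast 2 of 9 tested genes passed, against 4.25% of 12814 genes, and both were higher in Ptgs2-positive cells. Il34 was at 167, 174, 190 and 593 CPM in positive cells and at 125, 156, 157 and 453 CPM in negative cells of acupuncture replicates 1 and 2 and dysentery replicates 1 and 2. It was higher in positive cells in 4 of 4 libraries, with a log2 difference of 0.33 ± 0.06 (SE) and an edgeR adjusted p of 0.0234. Cd200 was at 35.3, 21.1, 14.4 and 13.5 CPM in positive and at 22.2, 16.5, 11.1 and 12.1 CPM in negative cells. It was also higher in 4 of 4 libraries, with a log2 difference of 0.44 ± 0.10 (SE) and an edgeR adjusted p of 0.0464. The Il34 call was lost without acupuncture replicate 1 (edgeR adjusted p of 0.0876) and without dysentery replicate 1 (0.0508). The Cd200 call was lost without acupuncture replicate 1 (0.243), acupuncture replicate 2 (0.182) or dysentery replicate 1 (0.0823), and in DESeq2 (adjusted p of 0.0837).

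Gas6 was at 156, 198, 318 and 137 CPM in Ptgs2-positive cells and at 293, 330, 297 and 248 CPM in negative cells. It was lower in positive cells in 3 of 4 libraries and not in dysentery replicate 1, with a log2 difference of -0.58 ± 0.14 (SE) and an edgeR adjusted p of 0.0539. The adjusted p was 0.00171 without that library and 0.092 to 0.238 without any other library. Mertk was at 0.33 to 0.65 CPM in positive and 0.92 to 1.77 CPM in negative cells, on 2 to 12 and 23 to 29 UMIs per library. It was lower in positive cells in 4 of 4 libraries, with a log2 difference of -1.30 ± 0.32 (SE) and an edgeR adjusted p of 0.0565, which ranged from 0.0323 (no filter on low counts) to 0.899 over the alternatives. Csf1 differed by 0.10 ± 0.06 (SE) and Axl by 0.12 ± 0.05 (SE) on the log2 scale, with edgeR adjusted p-values of 0.376 and 0.266, and Csf1r, Cx3cl1 and Cx3cr1 had adjusted p-values of 0.572, 0.441 and 0.988. No tested gene of the set passed for a difference between acupuncture and dysentery in its Ptgs2 contrast, the lowest adjusted p for that difference being 0.472 by edgeR, against 2.08% of all genes with such a difference. Dissociation stress genes moved with the split, at 3196 to 19707 CPM in positive and 2280 to 7859 CPM in negative cells. Clusters also moved with it. Cluster 7 made up 73.2% and 75.8% of positive and 15.4% and 13.5% of negative cells in acupuncture replicates 1 and 2. Cluster 5 made up 27.7% and 79.8% against 10.3% and 49.0% in dysentery replicates 1 and 2. Cluster 12, high in Gas6, made up 1.41% to 9.64% of positive and 11.4% to 20.4% of negative cells. The part of these values in the Ptgs2 contrast was not tested.

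The title also names M2 macrophages, a state marked by the scavenger receptors Mrc1 and Cd163. Macrophages with UMIs of both were 88.8% and 88.2% of macrophages with acupuncture and 50.2% and 54.8% with dysentery, and they were set against macrophages with neither, of which a library held 20 to 117. In this contrast 5 of 7 tested genes passed, against 12.2% of 8981 genes, 2 of them higher and 3 lower in cells with both markers. Csf1r was at 1630, 1628, 1799 and 1858 CPM with both markers and at 474, 488, 583 and 449 CPM with neither, without overlap. The log2 difference was 1.78 ± 0.19 (SE), with an edgeR adjusted p of 3.12e-05. Gas6 was at 682, 681, 580 and 628 CPM with both and at 75.4, 68.7, 103 and 83.2 CPM with neither, also higher in 4 of 4 libraries. Its log2 difference was 2.90 ± 0.23 (SE), with an edgeR adjusted p of 3.25e-06. Mertk was at 42.2 to 49.7 CPM with both and at 0 to 30.2 CPM with neither, on 0 to 20 UMIs, and its log2 difference of 1.43 ± 0.50 (SE) had an edgeR adjusted p of 0.0834. The log2 difference was 2.62 (edgeR adjusted p of 0.000195) without dysentery replicate 1, and 1.10 to 1.62 (0.182 to 0.212) without any other library. Cd200r1 differed by 0.08 ± 0.73 (SE) with an adjusted p of 0.972, and Il34, Cx3cl1 and Cd200 were not tested.

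Axl was at 15.1, 14.3, 61.3 and 35.7 CPM with both markers and at 80.8, 107, 281 and 94.3 CPM with neither. It was lower in cells with both in 4 of 4 libraries, with a log2 difference of -2.23 ± 0.26 (SE) and an edgeR adjusted p of 7.49e-05. Cx3cr1 was at 0.28 to 1.26 CPM with both and at 66.5 to 323 CPM with neither, with an edgeR adjusted p of 3.58e-08. Csf1 was at 8.84 to 10.6 CPM with both and at 26.9, 22.9, 136 and 5.55 CPM with neither. Its call rested on dysentery replicate 1: the log2 difference of -2.16 ± 0.55 (SE) had an edgeR adjusted p of 0.0196, of 0.552 without that library and of 0.0712 without acupuncture replicate 1. The cells with neither marker held more monocyte markers (760 to 1557 against 47.7 to 146 CPM). Their summed macrophage markers were lower in every library, at 8101 to 15271 CPM against 28462 to 33308 CPM in cells with both. In dysentery replicate 1, 83 of the 117 belonged to cluster 17, and in dysentery replicate 2, 17 of the 36 belonged to cluster 23. Dissociation stress genes summed to 10830 to 32484 CPM in cells with neither marker against 5452 to 25517 CPM in cells with both markers. In acupuncture replicate 2 they were lower in cells with neither (22268 against 25517 CPM). Cells with both markers were deeper (5989 to 10166 against 4386 to 5694.5 UMIs at the median). The part of these values in the contrast was not tested. Gated on thinned counts, Csf1r, Gas6, Axl and Cx3cr1 passed in the same directions.

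**Figure D5:**
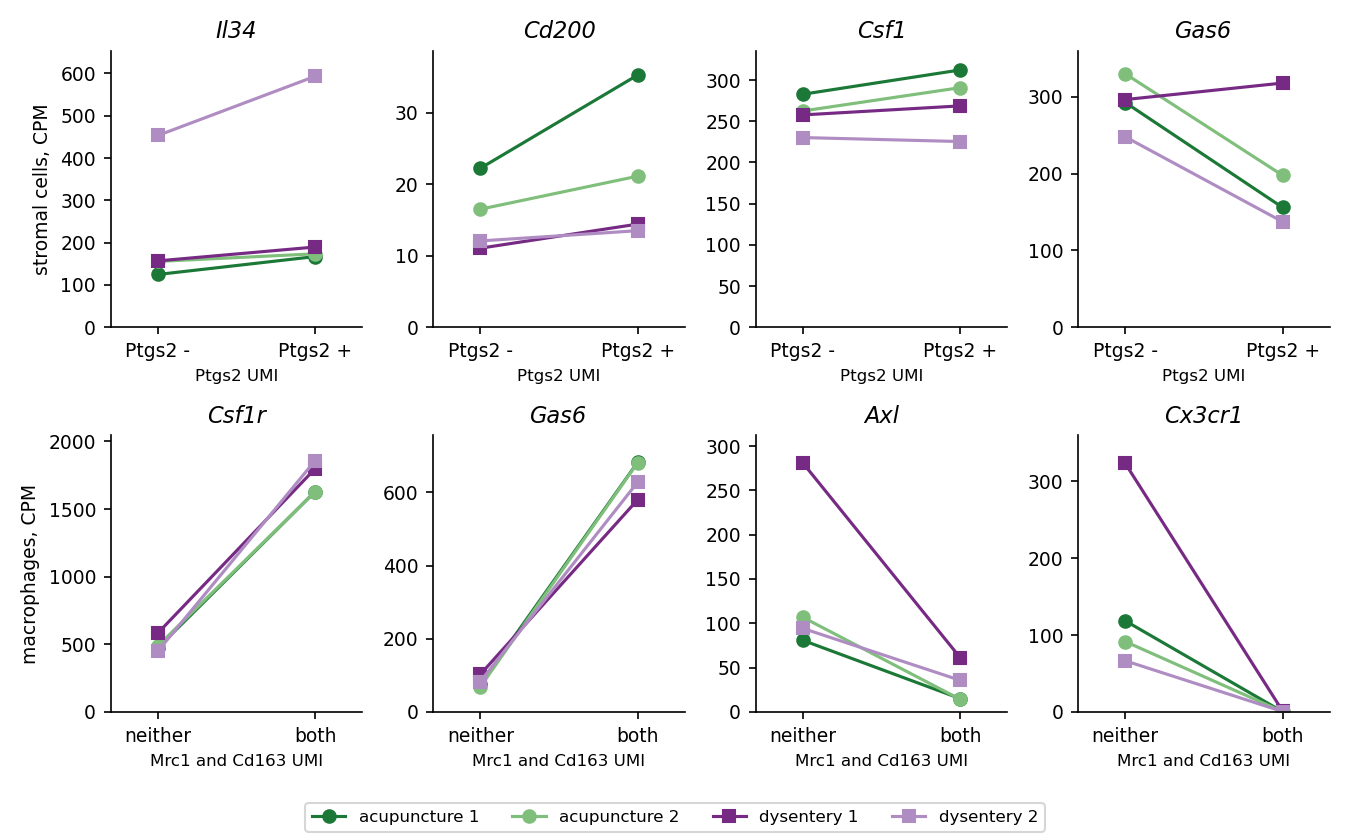
Level in CPM in the paired sums of each library: stromal cells without and with a Ptgs2 UMI (top) and macrophages with neither or both of Mrc1 and Cd163 (bottom); a line joins the sums of 1 library. Il34 and Cd200 are higher with Ptgs2 along all 4 lines and Gas6 is lower along 3, and in the lower row Csf1r and Gas6 are higher and Axl and Cx3cr1 lower with both markers along all 4.

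The surrounding pathway genes were taken from lists chosen with earlier results known. The list named survival and identity genes downstream of CSF1R was also read in stroma, where Csf1r itself was at 2.27 to 5.72 CPM. Of its 10 tested genes, 2 rose with acupuncture in stroma, the anti-apoptotic Mcl1 (0.86 ± 0.13 (SE), edgeR adjusted p of 0.0331) and the transcription factor Runx1 (2.00 ± 0.30 (SE), 0.0357). In macrophages 1 of 10 rose, again Mcl1 (1.17 ± 0.16 (SE), 0.0357). Their medians were 0.05 and 0.11 on the log2 scale, against -0.0046 and -0.02 over all genes. Of TAM partners and engulfment genes, 0 of 15 passed in stroma and 1 of 14 in macrophages, the scavenger receptor Stab1 (1.33 ± 0.12 (SE), edgeR adjusted p of 0.0268). Pros1, the other TAM ligand, was at 170 to 199 CPM in stroma with an edgeR adjusted p of 0.627. Of inhibitory ligands, receptors and adaptors, 2 of 12 rose in stroma (the cytokine-signalling inhibitors Socs1 and Socs3) and 2 of 14 in macrophages (Socs3 and the sialic-acid receptor Siglec1), and 0 fell. Over all genes 2.54% passed in stroma and 2.23% in macrophages. When each library was left out in turn, the macrophage calls of Mcl1, Stab1, Socs3 and Siglec1 were lost without either acupuncture library. In stroma Socs3 passed in 4 of 4 such fits, Socs1 only without acupuncture replicate 2, Runx1 only without dysentery replicate 1, and Mcl1 in 0, with edgeR adjusted p-values of 0.0647 to 0.147. None of 3 and 4 tested colony-stimulating factors and receptors, and none of 6 and 5 shedding proteases and their regulators, passed in stroma and macrophages. The dissociation stress list rose in 8 of 9 genes in stroma and 4 of 9 in macrophages, with medians of 1.82 and 1.53.

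Per cell, after thinning each cell to 2000 UMIs, Gas6 was detected in 67.8% and 66.7% of macrophages with acupuncture and in 46.6% and 49.9% with dysentery. Without thinning the shares were 93.9%, 93.6%, 71.8% and 75.5%, and 607 to 2388 macrophages per library reached the thinned depth. Among T cells, which should lack Gas6, the share was 0.57% to 1.63%. Csf1r was detected in 91.3% and 92.3% against 81.5% and 81.2% of macrophages. Axl was detected in 4.10% and 2.68% against 20.8% and 6.71% of macrophages, and in 0.57% to 2.44% of T cells. Il34 was detected in 21.1% and 26.3% against 22.3% and 52.3% of stromal cells, and in 0% to 0.89% of T cells. With 2 libraries against 2 the two-sided exact permutation test cannot go below p = 0.333, which each of Gas6, Csf1r and Axl reached, while Il34 gave an exact p of 0.667. Stromal cells with a Gas6 UMI carried an Axl UMI less often than those without in 4 of 4 libraries (49.7% to 64.2% against 57.8% to 72.2%). In macrophages, those with a Csf1r UMI carried a Gas6 UMI more often (52.5% to 70.0% against 20.5% to 44.7%).

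Over 37 sums of a class in a library, the genes whose levels ran closest to each of the 10 were listed as a description, since the sums share libraries and depth. Csf1r ran closest to Mrc1 and Clec4a1 among named genes (Pearson's r of 0.95 and 0.94), Mertk to the scavenger receptor Stab1 (0.93), and Gas6 to Camk1 (0.92). Il34 ran closest to Emx2, Fibin and Akr1c3 (0.98, 0.97 and 0.97), Axl to Smpd3 (0.96) and Csf1 to Ckap4 (0.79). Cx3cl1 ran closest to Vwa1 and Podxl (0.98 each), Cx3cr1 to S1pr5 (0.91), Cd200 to Pkp4 (0.88) and Cd200r1 to Alox5ap (0.83). Between members, the highest values were 0.89 for Axl and Il34, 0.74 for Cd200 and Cx3cl1 and 0.72 for Csf1r and Mertk.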

How the data were processed

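The deposited counts are whole-number UMI counts per gene and cell barcode from 10x 3' libraries, per the labels' protocols, with 1 matrix per library. The submitters' processing notes name Cell Ranger 6.0.1, STAR, mRatBN7.2 and GRCh38.p13, with no role given for each. The deposited gene and barcode tables hold names only. Rats had dysentery in every library, and the fascia was digested with collagenase and elastase, per the labels' protocols.

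Cells with at least 300 genes, 500 UMIs and at most 20% mitochondrial counts (13 genes) were kept. Scrublet was run per library and the top 0.8% of cells per 1000 cells were removed as doublets (2507 cells). Each of 17 classes was scored by the mean of its markers, scaled to the 95th percentile of cells holding the marker, and a cell needed a lead of 0.1 and 3 detected markers. Of the 111 markers, 10 had no row of their own. This score replaced a first form (markers scaled to unit variance, lead of 0.5), which left 49.5% of cells without a class. The replacement was made after cell numbers and the levels of the 10 genes by class and library had been seen. Leiden clusters used 2000 variable genes, 30 components, 15 neighbours and resolution 1 (scanpy 1.11.5, igraph 0.11.9, python 3.11.15).

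UMIs were summed per library and class and tested with edgeR 4.0.16 quasi-likelihood fits (TMM scaling, its default filter on low counts, Benjamini-Hochberg adjustment within a comparison, threshold 0.05, R 4.3.3). The contrasts within libraries used the library as a block. DESeq2 1.42.0 was an alternative. The SE is the log2 fold change over the square root of F. The fitting was tested on simulated data. Likeness used log2(CPM + 10) over genes reaching 50 CPM. Shares of cells carry exact 95% intervals in the tables, which cover counting error only.

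The rule for named genes took the 10 genes, called or not, and of the 6 pathway lists the genes passing the test in stroma or macrophages. The genes and lists were chosen with earlier results of these data known. The T cell test, the clusters shared by all libraries, the macrophages without a Cx3cr1 UMI and the first form of the gate were added as alternatives after seeing the data. Other alternatives were scaling, filters, doublets, gate strictness, clusters in place of gates, a thinned gate and leaving out each library. The labels give no batch or date. Total UMIs per library ranged from 53066666 to 93897006.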

Additional observations from a re-analysis of the deposited data

Results flagged for a closer look

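For 3 pairs of a gene's classes, the groups did not overlap in either class and lay in opposite directions. Non-overlap alone held for 46.6% to 57.9% of all genes tested in these classes. The share of all genes that meet the rule in a pair of classes was not computed, so the count of 3 has no background. Cd200 had a log2 fold change of 0.92 in stromal cells (edgeR adjusted p of 0.0466) and of -0.98 in macrophages (0.326), a gap of 1.901 on the log2 scale. The direct edgeR test of that difference gave -1.86 for macrophages minus stroma, with an adjusted p of 0.0962, and in macrophages Cd200 rested on 16 to 31 UMIs per library. In vascular endothelium the log2 fold change of Cd200 was -0.48 (edgeR adjusted p of 0.247), and its distance from the stromal value was a gap of 1.40 on the log2 scale that was not tested. Gas6 had a log2 fold change of 0.89 in macrophages (edgeR adjusted p of 0.0415) and of -0.26 ± 0.21 (SE) in vascular endothelium (0.614), a gap of 1.15 on the log2 scale that was not tested. In endothelium the nearest libraries of the groups were close, at 104 CPM in acupuncture replicate 2 and 106 CPM in dysentery replicate 2.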

How the results depend on the processing

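The number of genes called over the whole table moved with the processing, and the cause was not tested. Group comparisons without 1 library leave 1 library in a group, so their counts rest on the spread within the other group. In stromal cells 336 genes were called, against 826 with DESeq2, 888 with no filter on low counts, 172 in the shared cluster and 123 to 569 when a library was left out. In macrophages 252 were called, against 786 with DESeq2, 1793 with no filter, 86 with doublets kept, 552 with clusters in place of gates, 733 without Cx3cr1-positive cells, 60 in the shared clusters and 0 to 1231 when a library was left out. In vascular endothelium 94 were called, against 44 with DESeq2, 277 with no filter, 29 with doublets kept, 61 with clusters and 171 to 248 when a library was left out. In T cells 130 were called, against 20 with no filter, 249 with clusters and 0 to 421 when a library was left out. The Ptgs2 contrast called 544, against 1017 with no filter, 0 without the library block (edgeR, 551 at an unadjusted p under 0.05) and 128 to 736 when a library was left out. The contrast on Mrc1 and Cd163 called 1095, against 1892 with the gate on thinned counts and 619 to 1159 when a library was left out. In macrophages the edgeR fits with 0 calls, those without acupuncture replicate 1 or 2, had 1392 and 1137 genes at an unadjusted p under 0.05. In T cells the fits without dysentery replicate 1 or 2 had 663 and 593.

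Libraries that share a replicate number are not stated to be paired, and their deviations correlated at 0.17 in stroma, -0.08 in macrophages, 0.13 in endothelium and 0.10 in T cells. With the replicate block, edgeR called 0 genes in macrophages (2054 at an unadjusted p under 0.05), 405 in endothelium and 414 in T cells. With that block the adjusted p was 0.0531 for stromal Cd200, 0.103 for macrophage Gas6 and 0.00102 for Cx3cr1 in T cells.

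Among single genes, shares and mean levels, 532 values were unchanged under alternatives. Unchanged meant the same direction and call for a gene, and a move within the spread between libraries for a share or mean level. Of the others, 28 lost a call, 32 gained one, 9 shares or mean levels moved by more than that spread, and 20 turned sign. In stroma, Gas6 turned to 0.011 with doublets kept and Mertk to -0.44 in the shared cluster. In macrophages, Csf1 turned to 0.19 with clusters and 0.26 in shared clusters, Csf1r to -0.055 and Mertk to -0.15 in shared clusters. Csf1r in the Ptgs2 contrast turned to 0.43 with doublets kept and 0.085 with the thinned gate, and Cd200r1 in the contrast on Mrc1 and Cd163 to -0.41 with the thinned gate. Leaving out a library gave ranges through zero in stroma for Cx3cr1 (-3.78 to 1.46), Gas6 (-0.21 to 0.19) and Mertk (-0.12 to 0.49). The same held in macrophages for Csf1 (-1.76 to 0.39) and Cd200r1 (-0.11 to 0.27). It held for Cx3cr1 in the Ptgs2 contrast (-0.052 to 0.896) and Cd200r1 in the contrast on Mrc1 and Cd163 (-0.28 to 0.51). The difference in the share of stromal cells ranged from -28.6 to 1.38 points for Il34 and from -1.72 to 4.34 points for Gas6. The first form of the gate could not be run for the contrast on Mrc1 and Cd163, for want of cells. Genes with few UMIs per sum, such as Cd200r1 and Cx3cl1, are limited by depth.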
